A study of Mus musculus with 12 samples.

Results

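Laminins and other basement membrane genes were followed across cultures of mouse prostate cells. The members were 9 genes chosen by symbol, namely the laminin chain genes Lama3, Lama5, Lamb3 and Lamc1, the linker genes Hspg2 (perlecan) and Nid1 (nidogen), and the collagen genes Col4a1, Col17a1 and Col18a1. In the probe annotation 8 of them had a probe, with 15 probes among the 45135 of the array, and Lama3 was not analysed here. A probe was tested when its detection p was under 0.05 on each of the 3 replicate arrays of any culture. This held for 13 probes of 7 members, each of which was detected on all 9 replicate arrays, and for neither probe of Nid1.

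The cells were labelled prostate stem cells of the C57Bl/6 strain and were profiled on 12 arrays. The 3 cultures were spheroid cells of mouse 1, adherent monolayer cells of mouse 2 and adherent monolayer cells of mouse 1, each with 3 replicate arrays and 1 array of the pooled replicates. The spheroid condition was a single culture, and the labels do not say whether replicates were grown separately, so p-values measure the spread between these arrays, which may be technical. Values are log2 intensities after background correction and quantile normalization, and a gene is represented by its brightest tested probe. A gene was called, here also written as risen or fallen, at a Benjamini-Hochberg adjusted p under 0.05 over the 10112 tested genes and a fold of at least 2 in limma's moderated test. All 5 basal epithelial marker genes, Krt5, Krt14, Krt15, Trp63 and Itga6, were detected on every replicate array. In adherent mouse 2, replicate 1 differed from the other arrays of its culture. The table does not number those, and they are called a and b here. The log2 values of replicate 1 correlated across genes at 0.982 with array a and 0.975 with array b, against 0.994 between a and b. With the adherent mouse 1 arrays, replicate 1 correlated at 0.978 to 0.981, array a at 0.976 to 0.978 and array b at 0.971 to 0.973. On the brightest Col17a1 probe the pool of these replicates (12.96) lay nearer replicate 1 (12.75) than a (13.40) or b (13.54). On the brightest Hspg2 probe the pool (10.80) lay nearer b (10.79) than replicate 1 (10.72). Which arrays deviate cannot be told, and values without replicate 1 are not taken as the better ones. Both values are given where leaving out replicate 1 changed a member's call or moved a stated difference of its brightest probe by over 1.5 times. For other probes and other genes, only the fit to all 9 replicate arrays is given.

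The basement membrane is the thin sheet of extracellular matrix on which an epithelium rests, and prostate basal cells attach to it directly. Laminins, each a trimer of an alpha, a beta and a gamma chain, polymerise into a first network on the cell surface, and collagen IV forms a covalently linked second network. Nidogens and the heparan sulfate proteoglycan perlecan connect these networks, while the transmembrane collagen XVII and the integrin of alpha6 and beta4 chains anchor basal cells to laminin in hemidesmosomes.

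Spheroid cells had more RNA for the laminin chain Lama5 and less for Hspg2, Col18a1 and Col4a1 than the average of both adherent cultures. Of the 7 tested members 1 rose and 3 fell, where 13.1% of all tested genes rose and 13.4% fell. Of all genes called, 50.6% were lower in spheroid cells, and this share was 72.5% when arrays were scaled to a common median instead. The median log2 difference was -0.36 over the 7 members and -0.06 over all tested genes. Against adherent mouse 1 alone 2 members rose (Lama5 and Lamb3) and 2 fell (Hspg2 and Col18a1), where 13.4% of all tested genes rose and 14.1% fell. Against adherent mouse 2 alone 0 rose and 3 fell (Hspg2, Col18a1 and Col4a1), where 13.2% rose and 13.6% fell. At an unadjusted limma p under 0.05, 2 members were higher and 3 lower, and the shares of all tested genes at this cut were not counted. In whole cultures a lower share of cells with a transcript and less transcript per cell cannot be told apart. The differences ran from -2.27 for Hspg2 to 1.17 for Lama5. The smooth muscle marker Acta2 was also lower in spheroid cells, by 4.0 on the log2 scale, and its part in these differences was not tested.

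**Figure D1:**
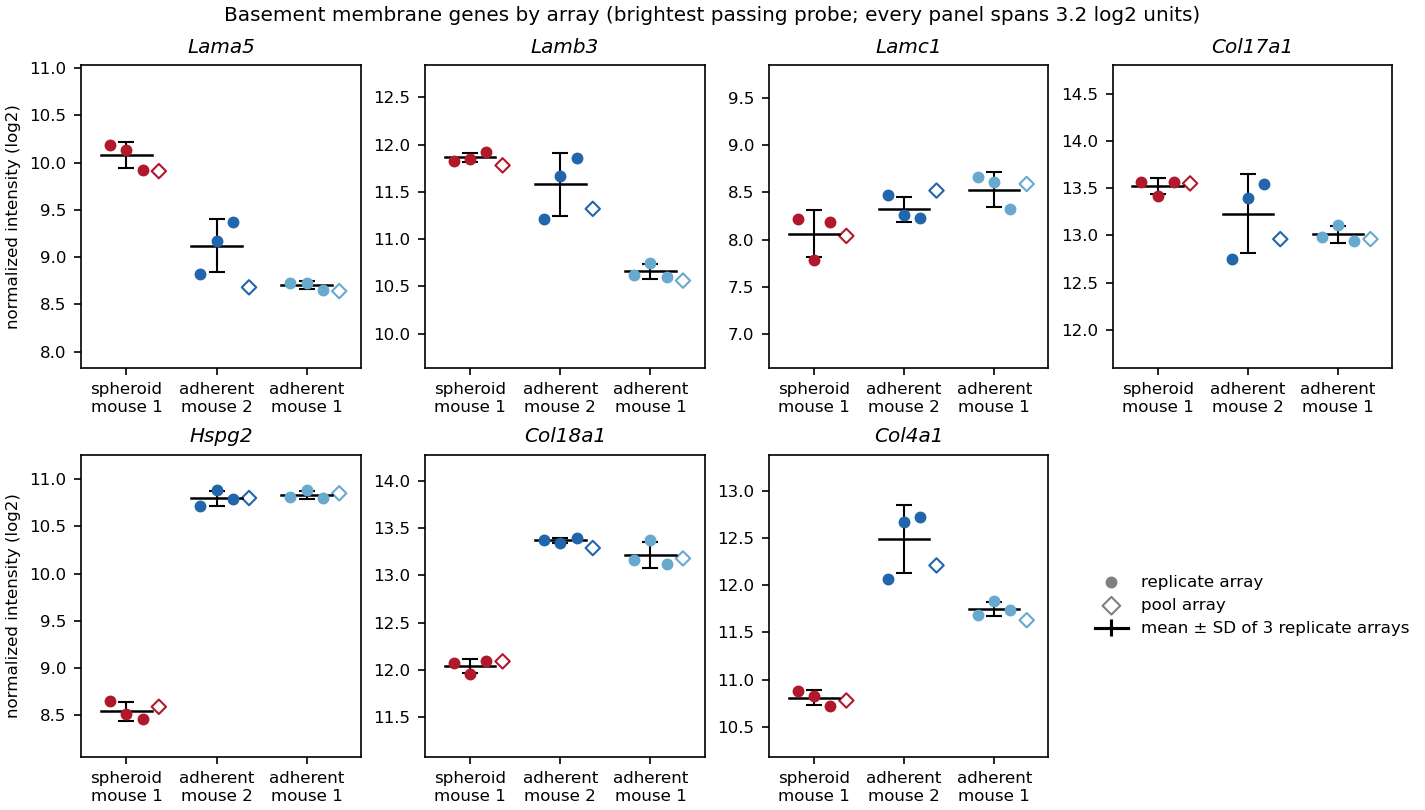
Normalized log2 intensity of the 7 tested members, 1 panel each, in spheroid mouse 1, adherent mouse 2 and adherent mouse 1. Filled points are replicate arrays, bars the mean ± SD of 3 arrays and open diamonds the pools. Lama5 is highest and Hspg2, Col18a1 and Col4a1 are lowest on the spheroid arrays, and Lamb3, Col17a1 and Col4a1 spread widely within adherent mouse 2.

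Among the laminin chains, Lama5 encodes the alpha5 chain, which is widespread in epithelial basement membranes. It measured 10.19, 10.13 and 9.92 on the spheroid arrays, 8.82, 9.17 and 9.37 in adherent mouse 2 (replicate 1, a and b) and 8.73, 8.73 and 8.65 in adherent mouse 1. All 3 spheroid arrays lay above all 6 adherent arrays, as they did for 25% of tested genes. The log2 difference from the adherent average was 1.17 ± 0.11 (SE, 9 arrays, limma adjusted p = 9.75e-07) and was 1.09 without adherent mouse 2 replicate 1. Against adherent mouse 1 alone it was 1.37 and was called (limma adjusted p = 9.79e-07). Against adherent mouse 2 alone it was 0.96 (95% interval 0.67 to 1.25, limma adjusted p = 3.07e-05), just within the 2-fold threshold, and it was 0.81 without adherent mouse 2 replicate 1. It passed the threshold without array b (1.08) or without spheroid replicate 3 (1.04). Under median scaling, which moved the median of all tested genes to -0.35, the difference from the adherent average was 0.67, and it was 1.02 above that median.

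Lamb3 encodes the beta3 chain of the hemidesmosomal laminin. It measured 11.83, 11.85 and 11.92 in spheroid cells, 11.21, 11.67 and 11.86 in adherent mouse 2 and 10.62, 10.75 and 10.60 in adherent mouse 1. The spheroid arrays overlapped those of adherent mouse 2 and lay well above those of adherent mouse 1. Against adherent mouse 1, the adherent culture of the same mouse number, Lamb3 rose by 1.21 ± 0.13 (SE, limma adjusted p = 2.91e-06). Against adherent mouse 2 the difference was 0.28 (95% interval 0.00 to 0.57, limma adjusted p = 0.0782), and it was 0.10 without replicate 1 (limma adjusted p = 0.265). Under median scaling it was -0.32, which was 0.12 above the median of all tested genes. Against the adherent average it was 0.75 (limma adjusted p = 6.08e-05), within the 2-fold threshold.

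Lamc1 encodes the gamma1 chain, the partner of the alpha5 chain in its trimers. Its brightest probe measured 8.22, 7.78 and 8.19 in spheroid cells, 8.47, 8.26 and 8.23 in adherent mouse 2 and 8.66, 8.61 and 8.32 in adherent mouse 1. The spheroid arrays were the lowest, by 0.01 at the narrowest point. The difference from the adherent average was -0.36 (95% interval -0.64 to -0.09, limma adjusted p = 0.0245), within the 2-fold threshold. Without spheroid replicate 2, the lowest array, it was -0.22 (limma adjusted p = 0.171). The second Lamc1 probe gave -0.40 (limma adjusted p = 0.0559 over the 18950 tested probes). On this second probe adherent mouse 2 arrays a and b measured 8.64 and 8.86, against 7.90 on replicate 1, a gap that the brightest probe did not show.

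Hspg2 had the largest difference of the 7 members. Its brightest probe measured 8.65, 8.51 and 8.46 in spheroid cells, 10.72, 10.88 and 10.79 in adherent mouse 2 and 10.81, 10.88 and 10.80 in adherent mouse 1. The 6 adherent arrays spanned 0.16 log2 units and lay at least 2.07 log2 units above every spheroid array. Hspg2 was 4.83-fold lower in spheroid cells than in the adherent average (log2 difference -2.27 ± 0.08, SE, limma adjusted p = 2.42e-11), with -2.29 against adherent mouse 1 and -2.26 against adherent mouse 2. Its second probe, with 8.03, 8.04 and 7.74 in spheroid cells, 10.07, 10.60 and 10.65 in adherent mouse 2 and 10.09, 10.07 and 9.96 in adherent mouse 1, gave -2.30 ± 0.13 (SE). Both probes were called against the adherent average, where 11.5% of all tested probes rose and 12.4% fell.

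Nid1, which encodes the nidogen that bridges laminin and collagen IV, stayed near background. The detection threshold was met by its probes on 1 and 2 of 3 spheroid arrays, on 0 and 0 of 3 adherent mouse 2 arrays, and on 2 and 1 of 3 adherent mouse 1 arrays. Deposited intensities were 136.1 to 151.0 in spheroid cells, 127.0 to 150.2 in adherent mouse 2 and 121.4 to 148.9 in adherent mouse 1, against array medians of 129 to 150 over all probes. No difference was detectable at this signal. Its paralogue Nid2 was detected on 0 of 9 replicate arrays.

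Col4a1 encodes the alpha1 chain of collagen IV, which assembles with the alpha2 chain. It measured 10.88, 10.83 and 10.72 in spheroid cells, 12.07, 12.67 and 12.72 in adherent mouse 2 and 11.68, 11.83 and 11.74 in adherent mouse 1. The cultures did not overlap and stood in the order spheroid, adherent mouse 1, adherent mouse 2 from low to high. The log2 difference from the adherent average was -1.31 ± 0.12 (SE, limma adjusted p = 4.80e-07), or 2.47-fold lower in spheroid cells, and it was -1.41 without adherent mouse 2 replicate 1. Against adherent mouse 2 it was -1.67 and was called, and against adherent mouse 1 it was -0.94 (limma adjusted p = 5.40e-05), within the 2-fold threshold. Under median scaling the difference from adherent mouse 1 passed the threshold too, at -1.32, where the median of all tested genes was -0.27. Relative to the median of all genes it was -1.05 under that scaling and -0.88 in the main setting.

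Col4a2, the gene of the alpha2 chain, went the same way by less. It measured 10.71, 10.90 and 10.86 in spheroid cells, 11.54, 11.85 and 12.15 in adherent mouse 2 and 11.18, 11.31 and 11.26 in adherent mouse 1. Its difference was -0.73 ± 0.11 from the adherent average (SE, limma adjusted p = 5.50e-05, not called), -1.03 against adherent mouse 2 (called) and -0.43 against adherent mouse 1. These comparisons share the spheroid arrays. For the other collagen IV chains the differences from the adherent average were -1.0 for Col4a3, at the 2-fold threshold (limma adjusted p = 0.0158) and detected on 1 of 3 spheroid arrays, -0.11 for Col4a4 and 0.21 for Col4a5.

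Col18a1 encodes a heparan sulfate collagen of basement membranes whose C-terminal fragment is endostatin. Its brightest probe measured 12.07, 11.96 and 12.09 in spheroid cells, 13.37, 13.34 and 13.40 in adherent mouse 2 and 13.16, 13.37 and 13.12 in adherent mouse 1. Every spheroid array lay at least 1.03 log2 units below every adherent array, and 28.6% of tested genes had all spheroid arrays below all adherent ones. The difference from the adherent average was -1.25 ± 0.07 (SE, limma adjusted p = 1.73e-09). All 3 probes fell against the adherent average, with log2 differences of -1.69 and -1.48 for the others. The dimmest of them ranged from 6.36 to 7.83 within adherent mouse 2, and its SE was 0.27.

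Col17a1, the hemidesmosomal collagen XVII, had, with Lamc1, the smallest differences from the adherent average. Its brightest probe measured 13.57, 13.42 and 13.57 in spheroid cells, 12.75, 13.40 and 13.54 in adherent mouse 2 and 12.98, 13.11 and 12.94 in adherent mouse 1. Spheroid cells overlapped adherent mouse 2 and lay above adherent mouse 1. The 3 probes gave log2 differences of 0.40, 0.46 and 0.41 from the adherent average (limma adjusted p = 0.0175 for the brightest probe), all within the 2-fold threshold. Against adherent mouse 2 the brightest probe differed by 0.29 (limma adjusted p = 0.118), and by 0.05 without replicate 1 of that culture. The other probes differed from adherent mouse 2 by 0.51 (ILMN_2879995, limma adjusted p = 0.000553) and 0.43 (ILMN_1216228, limma adjusted p = 0.0278). On ILMN_2879995 the spheroid arrays lay above all 3 of that culture. On ILMN_1216228 they overlapped, with 12.62, 12.50 and 12.47 in spheroid cells and 11.67, 12.17 and 12.48 in adherent mouse 2, where replicate 1 was the lowest. From the adherent average the brightest probe differed by -0.01 under median scaling, 0.34 above the median of all genes. The probes disagreed within adherent mouse 2: arrays a and b measured 13.40 and 13.54 on the brightest probe, against 12.75 on replicate 1, but 12.79 and 12.81 on probe ILMN_2879995, against 13.11 on replicate 1.

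Probe by probe, 11.7% of all tested probes rose and 13% fell against adherent mouse 1, and 11.7% rose and 12.8% fell against adherent mouse 2. Between the adherent cultures 1.12% of tested probes were higher and 0.987% lower in mouse 2, and no member probe was called.

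**Figure D2:**
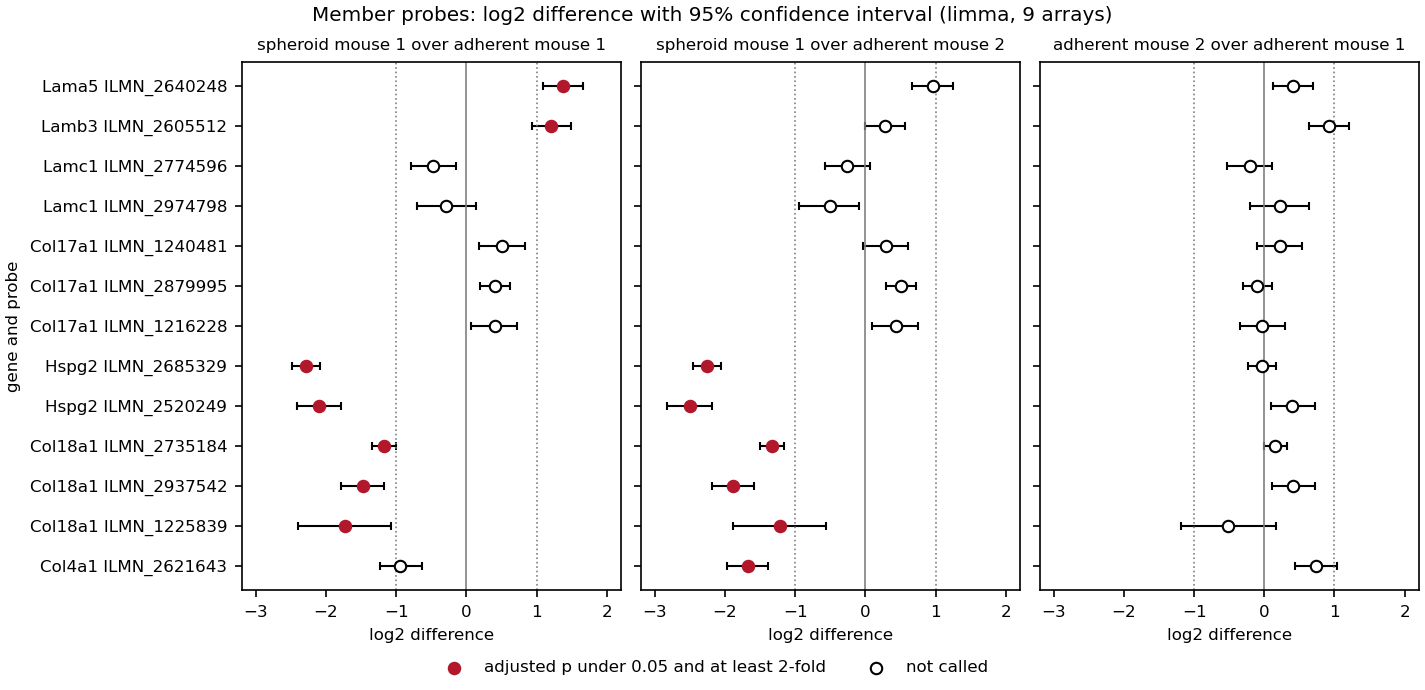
Log2 differences of the 13 tested probes with 95% confidence intervals, for spheroid mouse 1 over adherent mouse 1, spheroid mouse 1 over adherent mouse 2 and adherent mouse 2 over adherent mouse 1. Filled points passed an adjusted p under 0.05 and a 2-fold difference. The Hspg2 and Col18a1 probes are called against both adherent cultures, Lama5 and Lamb3 against adherent mouse 1 and Col4a1 against adherent mouse 2.

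The sequences around the annotated starts of the 4 called members are shown because 3 of these genes fell while Lama5 rose, and that of Col4a2 because it lies head to head with Col4a1. Each is 300 bases long, 250 before and 50 after the start, on the strand of the gene, from RefSeq on build GRCm38.p6, at chr4:137468553-137468852 (plus strand) for Hspg2, chr8:11312777-11313076 (minus strand) for Col4a1, chr8:11312555-11312854 (plus strand) for Col4a2, chr10:77166481-77166780 (upstream start) and chr10:77113656-77113955 (downstream start, both minus strand) for Col18a1, and chr2:180225810-180226109 (minus strand) for Lama5. Capitals mark GGGCGG (the GC box core) and CCAAT on either strand.
Hspg2: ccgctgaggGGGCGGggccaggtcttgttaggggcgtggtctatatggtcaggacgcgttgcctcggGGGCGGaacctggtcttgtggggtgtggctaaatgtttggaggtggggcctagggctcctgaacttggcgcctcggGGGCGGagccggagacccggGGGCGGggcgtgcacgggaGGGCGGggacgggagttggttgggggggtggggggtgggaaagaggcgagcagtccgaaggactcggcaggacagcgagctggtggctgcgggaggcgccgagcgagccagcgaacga
Col4a1: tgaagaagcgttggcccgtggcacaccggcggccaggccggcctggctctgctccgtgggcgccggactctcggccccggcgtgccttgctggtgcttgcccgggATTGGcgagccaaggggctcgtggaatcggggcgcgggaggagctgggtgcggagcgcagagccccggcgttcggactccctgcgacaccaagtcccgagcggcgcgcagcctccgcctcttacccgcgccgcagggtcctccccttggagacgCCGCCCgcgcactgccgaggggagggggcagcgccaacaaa
Col4a2: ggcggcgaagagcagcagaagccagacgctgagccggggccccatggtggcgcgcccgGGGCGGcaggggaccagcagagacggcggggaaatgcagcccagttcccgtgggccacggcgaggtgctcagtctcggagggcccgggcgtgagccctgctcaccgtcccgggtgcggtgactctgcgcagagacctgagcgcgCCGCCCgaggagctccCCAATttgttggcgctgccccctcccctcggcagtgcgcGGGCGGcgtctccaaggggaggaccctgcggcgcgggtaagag
Col18a1 upstream start: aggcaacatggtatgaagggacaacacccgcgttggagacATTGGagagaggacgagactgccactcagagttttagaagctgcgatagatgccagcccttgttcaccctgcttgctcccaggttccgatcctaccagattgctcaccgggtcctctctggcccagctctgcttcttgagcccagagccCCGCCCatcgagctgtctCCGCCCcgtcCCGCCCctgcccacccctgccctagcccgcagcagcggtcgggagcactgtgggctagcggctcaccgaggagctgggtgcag
Col18a1 downstream start: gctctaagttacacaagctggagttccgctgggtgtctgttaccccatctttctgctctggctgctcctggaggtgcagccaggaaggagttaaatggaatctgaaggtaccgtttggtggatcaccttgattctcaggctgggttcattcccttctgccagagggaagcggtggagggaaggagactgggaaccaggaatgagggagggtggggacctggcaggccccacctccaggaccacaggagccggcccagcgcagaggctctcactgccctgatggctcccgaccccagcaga
Lama5: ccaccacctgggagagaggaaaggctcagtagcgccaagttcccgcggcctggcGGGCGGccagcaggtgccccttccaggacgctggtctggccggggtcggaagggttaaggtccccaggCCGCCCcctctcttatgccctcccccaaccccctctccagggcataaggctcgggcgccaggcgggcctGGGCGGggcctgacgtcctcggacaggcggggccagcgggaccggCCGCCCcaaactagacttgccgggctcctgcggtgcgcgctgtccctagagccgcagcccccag

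The starts of Col4a1 and Col4a2 lay 21 bases apart on opposite strands, and their windows shared 78 bases. GGGCGG occurred 5 times at Hspg2, 4 times at Lama5, 3 times at Col4a2 and 3 times at the upstream Col18a1 start. It occurred 1 time at Col4a1 and 0 times at the downstream Col18a1 start, and 35.7% of the 32851 windows of this length held it. The Col4a1 site and the last Col4a2 site were the same bases, after both starts. GC content was 70.3% at Hspg2, 72.7% at Lama5, 74.0% at Col4a1 and 73.7% at Col4a2. At the Col18a1 starts it was 63.3% (upstream) and 59.7% (downstream), against a median of 52.7% over all windows. The share of 35.7% was not matched for GC content. CCAAT occurred 1 time each at Col4a1, Col4a2 and the upstream Col18a1 start, and 37.4% of windows held it. Neither TATAAA (in 13.6% of windows) nor TGANTCA (the AP-1 site, in 7.81%) occurred in these 6 windows, searched on both strands. The 3 genes that fell were not set apart from Lama5 by these letters. Of the remaining members, Col17a1 had 2 TATAAA, 1 CCAAT and no GGGCGG, Lamb3 had none of the 4 motifs at either of its starts, and Nid1 had 1 GGGCGG and 1 CCAAT. No window was examined for Lamc1 or Lama3.

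Between the adherent cultures no member was called, where 1.41% of tested genes were higher and 1.05% lower in mouse 2 (limma). At an unadjusted p under 0.05, 3 members were higher and 0 lower, and the shares of all tested genes at this cut were not counted. Adjusted p-values were under 0.05 with less than a 2-fold difference for 2 members. They were Lamb3, 0.92 ± 0.13 higher in mouse 2 (SE, limma adjusted p = 0.000546), and Col4a1, 0.74 higher (limma adjusted p = 0.00417). The arrays of mouse 2 lay above all arrays of mouse 1 for Lama5, Lamb3 and Col4a1, as they did for 14.8% of tested genes, while the opposite held for 16.1% of tested genes. Without adherent mouse 2 replicate 1, Lamb3 was 1.11 higher and passed the 2-fold threshold (limma adjusted p = 2.73e-09), and Col4a1 was 0.95 higher. Hspg2 differed by -0.03 (95% interval -0.22 to 0.16) on its brightest probe, by 0.01 on that probe without adherent mouse 2 replicate 1, and by 0.40 (95% interval 0.09 to 0.72, limma adjusted p = 0.104) on its second. Col17a1 differed by 0.22 (limma adjusted p = 0.383), and by 0.46 without adherent mouse 2 replicate 1. The pool of adherent mouse 2 measured 8.68 for Lama5, below each of its 3 replicates, and 11.32 for Lamb3 and 12.21 for Col4a1, within their range and near replicate 1.

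Further basement membrane genes included called genes of both directions. Of 32 listed genes 29 were on the array and 17 were tested, of which 3 (17.6%) rose and 4 (23.5%) fell against the adherent average, where 13.1% and 13.4% of all tested genes did (limma), and their median log2 difference was -0.19. Lamb2, a beta chain that joins alpha5 and gamma1 chains, measured 9.0, 9.01 and 8.88 in spheroid cells, 7.58, 7.48 and 7.66 in adherent mouse 2 and 7.25, 7.11 and 6.97 in adherent mouse 1. It rose by 1.62 ± 0.11 (SE, limma adjusted p = 1.84e-08), and Lama5 was the other laminin chain called higher. Lamb1, the alternative beta chain, lay near background, with a difference of -0.29 (limma adjusted p = 0.310).

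Ntn4 (netrin 4, a laminin-related protein that binds laminin gamma1) rose by 1.65 and Fbln2 (fibulin 2, a matrix glycoprotein that binds laminins and nidogen) by 1.80. Fbln2 was detected on 2 of 3 adherent mouse 2 arrays, and its level there lay near background. The other falls were those of Tnc (tenascin C, -3.76), Sparc (a collagen-binding matricellular protein, -3.36), Fbln1 (fibulin 1, -2.11) and Col4a3. Tnc measured 9.72, 9.72 and 9.47 in spheroid cells, 13.09, 13.75 and 13.98 in adherent mouse 2 and 13.18, 13.23 and 13.12 in adherent mouse 1. Agrn (agrin, a heparan sulfate proteoglycan) and Col7a1 (collagen VII of anchoring fibrils) differed by -0.80 and 0.48, within the 2-fold threshold.

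Next came the genes of the receptors that hold cells to the basement membrane. Of 17 listed genes all were on the array and 14 were tested, of which 0 rose and 2 (14.3%) fell, against 13.1% and 13.4% of all tested genes (limma, median log2 difference -0.29). At an unadjusted p under 0.05, 1 was higher and 8 lower. An adjusted p under 0.05 with less than a 2-fold difference was found for 7 of the 14. The shares of all tested genes at these cuts were not counted, so no trend of the receptors is read from them. Itgb4 measured 13.27, 13.12 and 13.13 in spheroid cells, 13.20, 13.32 and 13.27 in adherent mouse 2 and 13.08, 13.14 and 12.85 in adherent mouse 1, and the cultures overlapped. Its partner Itga6 had a difference of 0.18 (limma adjusted p = 0.357), with other probes at 0.77 and -0.58, of which neither was called. The falls were Itgb1 (the beta1 integrin chain, -1.18, and -0.87 against adherent mouse 1, which was not called) and Dst (dystonin, whose epithelial form is a hemidesmosome plaque protein, -1.25). Of the 5 other Dst probes 2 were called lower, at -1.30 and -1.67, and 3 were not called, at -0.03 to -0.57.

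Genes that modify or fold matrix proteins were called at a share near that of all genes. Of 17 listed genes 16 were on the array and 11 were tested, of which 2 (18.2%) rose and 2 (18.2%) fell, against 13.1% and 13.4% of all tested genes (limma), with a median log2 difference of -0.40. P4ha2 (a collagen prolyl hydroxylase subunit) rose by 1.75 and Loxl4 (a lysyl oxidase-like crosslinking enzyme) by 1.11. Plod2 (a lysyl hydroxylase) fell by 1.37 on the log2 scale, and Serpinh1 (the collagen chaperone HSP47) measured 11.39, 11.32 and 11.29 in spheroid cells, 12.13, 12.14 and 12.23 in adherent mouse 2 and 12.84, 12.85 and 12.77 in adherent mouse 1. Serpinh1 was called lower than the adherent average (-1.16) and adherent mouse 1 (-1.49), and against adherent mouse 2 it was within the 2-fold threshold (-0.83).

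**Figure D3:**
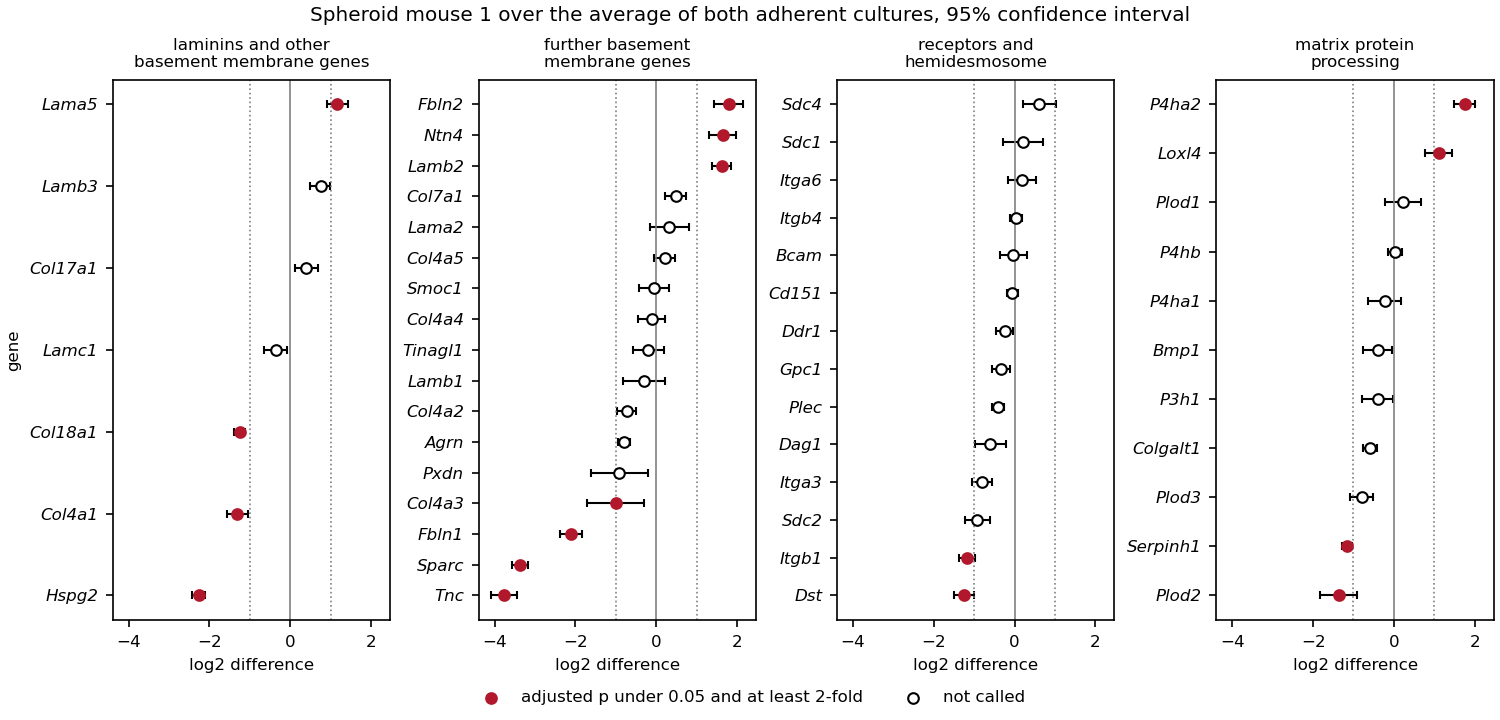
Log2 differences of spheroid mouse 1 over the average of both adherent cultures with 95% confidence intervals, for the 7 members and for the tested genes of 3 further lists. Filled points passed an adjusted p under 0.05 and a 2-fold difference, and dotted lines mark that fold. Points on both sides of 0 are filled in the members, the further basement membrane genes and the processing genes, and only on the lower side in the receptors.

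Other cell types that make basement membrane were looked for through their markers. Of 13 fibroblast and smooth muscle markers 4 were tested, and their intensities, summed over all 13 genes, ranged from 1747 to 1787 in spheroid cells, 22210 to 28250 in adherent mouse 2 and 21010 to 24360 in adherent mouse 1. Nearly all of the difference in this sum was Acta2 (-4.0): the other 12 genes summed to 258 to 288.2 in spheroid cells, 300.1 to 323.6 in adherent mouse 2 and 284.3 to 305.2 in adherent mouse 1. Most of these 12 genes were too faint to be tested, so their sums are largely signal near background. Col1a2, detected on 9 of 9 replicate arrays, and Des were not called (-0.05 and -0.10, limma adjusted p = 0.833 and 0.589). Actg2, detected on 0 of 3 spheroid arrays, was at least 2.08-fold lower (the dimmest detected signal standing in for its level), and Pdgfra, Pdgfrb and Col1a1 were detected on 0 of 9 replicate arrays. Of 8 endothelial markers 3 were tested, 0 were called (limma) and 1 was lower at an unadjusted p under 0.05, a cut at which all genes were not counted. The markers Cdh5, Vwf and Cldn5 were detected on 0 of 9 replicate arrays. All 8 endothelial markers summed to 165.4 to 174.4 in spheroid cells, 181.7 to 199.1 in adherent mouse 2 and 188.1 to 202.2 in adherent mouse 1. In these cultures 1, 1 and 2 of the 8 were detected on all 3 arrays, so the sums are mostly signal near background and are not read as a difference. Of 5 leukocyte markers 3 were on the array and 1 was tested (Cd3e, -0.49, not called). The intensities of these 3, near background, summed to 57.41 to 81.17 in spheroid cells, 68.56 to 75.76 in adherent mouse 2 and 63.28 to 76.95 in adherent mouse 1. The basal epithelial sum was 47600 to 49710 in spheroid cells, 32010 to 37040 in adherent mouse 2 and 36440 to 37550 in adherent mouse 1. Of these 5 markers Krt15 rose and 4 were not called, with 1 of them lower at an unadjusted limma p under 0.05. Their median log2 difference from the adherent average was 0.1. Of 7 luminal epithelial markers 4 were tested, with 1 rise (Krt19, detected on 1 of 3 adherent mouse 1 arrays, so that the size of its difference from the adherent average is uncertain) and 1 fall (Krt18, -1.42). The luminal sum was 8134 to 8990 in spheroid cells, 7250 to 8080 in adherent mouse 2 and 6208 to 6574 in adherent mouse 1. The part of these markers in the differences of the members was not tested.

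The genes whose log2 values, centred on their own mean, lay closest to each called member over the 9 replicate arrays were found by Euclidean distance. They were Rhou and Klf13 for Lama5 (0.24 and 0.29), Tpst1 and Kntc1 for Hspg2 (0.27 and 0.30), Pgam5 and Eif1a for Col18a1 (0.19 and 0.22), and Nol6 and Tpst2 for Col4a1 (0.29 and 0.30). Among the members themselves the closest pairs were Lama5 with Lamb3 and Col18a1 with Col4a1, each at 0.91, and the farthest was Lama5 with Hspg2 at 4.91. None of the nearest genes was another member.

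**Figure D4:**
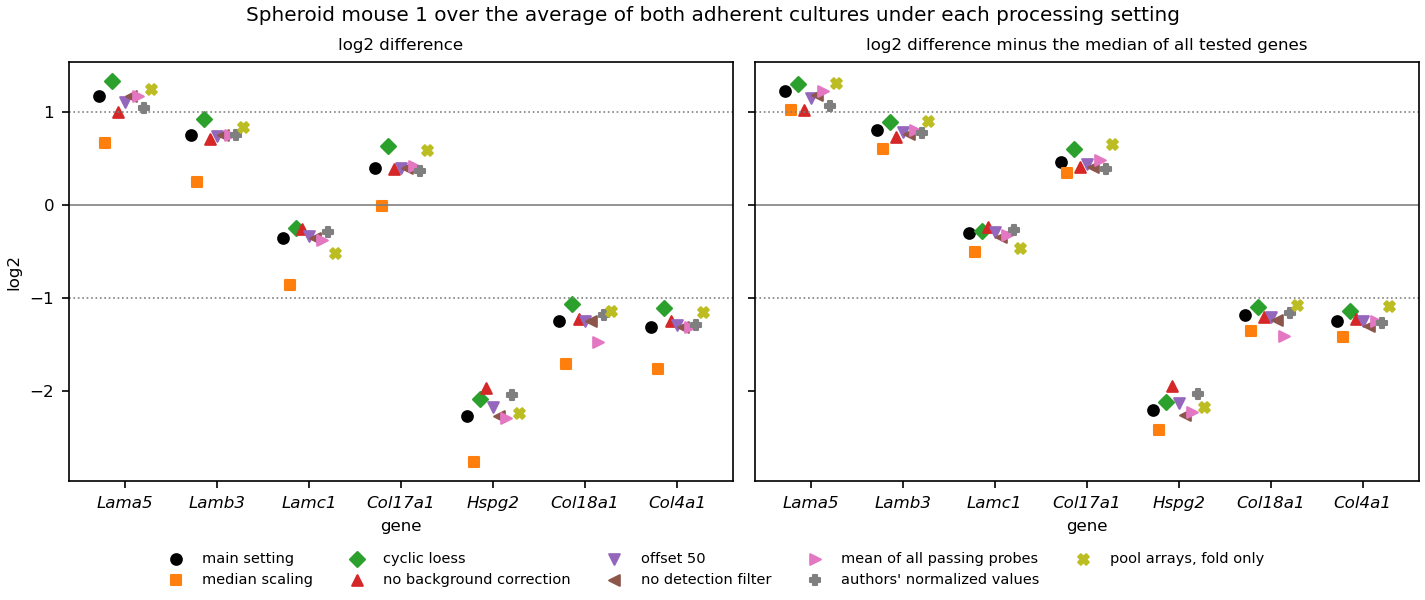
Log2 differences of spheroid mouse 1 over the average of both adherent cultures for the 7 members under 9 processing settings, as measured and after subtraction of the median of all tested genes. Under each setting Hspg2, Col18a1 and Col4a1 lie below -1 as measured, and Lama5 lies between 0.67 and 1.33.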

How the data were processed

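Illumina mouse arrays measured 3 replicates and 1 pool of each of 3 cultures. The authors deposited a non-normalized table of mean bead intensity, background included, and, for every probe on each array, a detection p-value, per the file headers, and a table of normalized intensity on a linear scale, whose method is not given in the sources used here. The header of the first table names 2 arrays of adherent mouse 2 alike, so they are called a and b. By Spearman correlation with the authors' normalized values, array a matched replicate 2 (0.9999) and array b matched replicate 3 (0.9998). With limma 3.58.1 in R 4.3.3, neqc corrected the background from the detection p-values, added an offset of 16 and quantile-normalized all 12 arrays. Probes detected at p under 0.05 on all 3 replicate arrays of a culture were kept (18950 probes), and the brightest per gene was used (10112 genes). Gene symbols came from the platform annotation. The 9 replicate arrays were fitted with 1 mean for each culture (lmFit, then eBayes with an intensity trend), without the pools, and the fit was tested on simulated data. Between 43.1% and 49.1% of probes were detected per array, and the number of arrays limits the precision. A log2 difference after the offset understates changes of dim genes. The members, lists and tests were chosen with earlier results of these data known. Named genes were all members, the called genes of 3 lists (at most 10 each), partner chains of the members and the 2 genes nearest to each called member. Agrn, Col7a1, Col4a4, Col4a5 and single cell type markers were named outside this rule, after their values were seen. Alternatives were other scalings, background, offset, filter and probe choices, the authors' values, replicate blocks, pools and leaving out each array.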

Additional observations from a re-analysis of the deposited data

How the results depend on the processing

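Over 19 alternatives (other scalings, no background correction, an offset of 50, no detection filter, averaged probes, the authors' normalized values, replicate blocks, pools and each array left out), 479 of 490 differences of single members stayed called or stayed uncalled, 5 lost a call, 6 gained one and 0 called differences changed sign. Some uncalled differences did change sign, among them those of Col17a1 and Lamb3 under median scaling. That scaling moved the median of all tested genes to -0.35 against the adherent average and -0.44 against adherent mouse 2. Both genes stayed above these medians. Under median scaling the number of members called higher was 0 against the adherent average (Lama5 0.67), 0 against adherent mouse 1 (Lama5 0.99, Lamb3 0.82) and 1 between the adherent cultures (Lamb3 1.14). Cyclic loess gave 1 called lower against adherent mouse 1, where Col18a1 fell just short at -1.0, and 1 called higher against adherent mouse 2 (Lama5 1.11). No background correction gave 0 called higher against the adherent average, where Lama5 fell just short at 1.0. The cause was not tested. With each array left out in turn, the number called higher was 0 to 1 against adherent mouse 2 and 0 to 1 between the adherent cultures. Median scaling gave 2326 lower genes of all tested against 883 higher ones, quantile normalization 1357 and 1327, cyclic loess 1058 and 1465. Of all genes 2684 were called against the adherent average, 1289 without background correction and 1475 with the authors' values. Between the adherent cultures these counts were 249, 51 and 63, and 102 with the offset of 50. With the replicate block, the fit to the authors' values called 1 member higher and 3 lower against the adherent average, and the fit to the mouse 1 cultures 2 higher and 2 lower, as without it. Since every culture held each replicate number, the block could alter p-values but not the log2 differences. Dropping the detection filter left the members' log2 differences unchanged too. Deviations of same-numbered arrays of the mouse 1 cultures correlated at 0.03, -0.04 and 0.07, so the numbers were not taken to pair the samples. Faint signal limits Nid1, whose probes stayed near background.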
